A study of Homo sapiens with 6 samples.

Results

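Messenger RNA of 9 genes that start, carry out or restrain apoptosis was measured in Hep3B, an established human hepatocellular carcinoma line. The genes are the death receptors TNFRSF10A, TNFRSF10B and FAS, the adaptor FADD, the caspase-8 brake CFLAR, the initiator caspases CASP8 and CASP9, and the inhibitor of apoptosis (IAP) genes XIAP and BIRC5. They were chosen by symbol, and every probe that the platform annotation gives to these symbols was taken, which came to 16 of 47321 probes, for 9 of the 20045 genes named on the array. The tested samples were Hep3B cells given sorafenib, a kinase inhibitor used against liver cancer, for 24 h (3 arrays), and the controls were Hep3B cells given the solvent DMSO for 24 h (3 arrays). The labels give the dose as 3 mM, a unit that could not be checked from the arrays. Hep3B is a single tumour line that lacks functional p53, a factor that acts on TNFRSF10B and FAS in other cells, and this holds for both groups. Nothing in the labels says whether the replicates were separate cultures, so p-values cover only the variation among the 6 arrays and some of it may be technical.

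In the extrinsic pathway, a ligand such as TRAIL or FAS ligand clusters its receptors on the cell surface, and the receptors recruit FADD, which in turn gathers CASP8. CFLAR, whose product is c-FLIP, joins the same complex and limits CASP8 activation. In the intrinsic pathway, cytochrome c released from mitochondria lets APAF1 assemble the apoptosome, which activates CASP9. XIAP binds and inhibits CASP9 and the executioner caspases, whereas BIRC5 (survivin) also works in mitosis as a subunit of the chromosomal passenger complex. Hepatocytes are known to be sensitive to FAS, and liver cancer cells often resist TRAIL.

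On the arrays TNFRSF10B rose and BIRC5 fell with sorafenib, and the other tested members did not pass the threshold. Between 34.3% and 36.7% of probes were detected per array, at a detection p-value under 0.01. A probe was tested if it was detected on at least 3 of the 6 arrays, and it passed if its adjusted p from limma, over all 16909 probes tested, was under 0.05. Of the 16 member probes, 9 were tested, from 6 genes, and 7 were not detected on any array. Among the 9 tested, 2 rose (both TNFRSF10B), 2 fell (both BIRC5) and 5 did not pass. One of the risen probes, the dimmer of TNFRSF10B, entered the tested set through the sorafenib arrays alone, so the filter favoured its rise and it counts for nothing beside the brighter probe. On the whole array 34.1% of tested probes passed, 17.9% higher and 16.2% lower, so the members' count lies near that background and shows nothing particular to them. Their median difference was 0.02 on the log2 scale, against -0.01 over all tested probes. In 7 of the 9 the groups did not overlap, compared with 49.5% of all tested probes. Markers were checked against the labelled cell type. Of 14 liver markers with a probe, 13 were detected on all 6 arrays, while both KRT18 probes were detected on none. Markers of leukocytes (PTPRC, CD3E) and endothelium (PECAM1, VWF, CDH5) were not detected, nor were the stromal markers COL1A1, COL1A2 and DCN, whereas CD14, CD68 and LUM were detected on all 6 arrays.

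**Figure D1:**
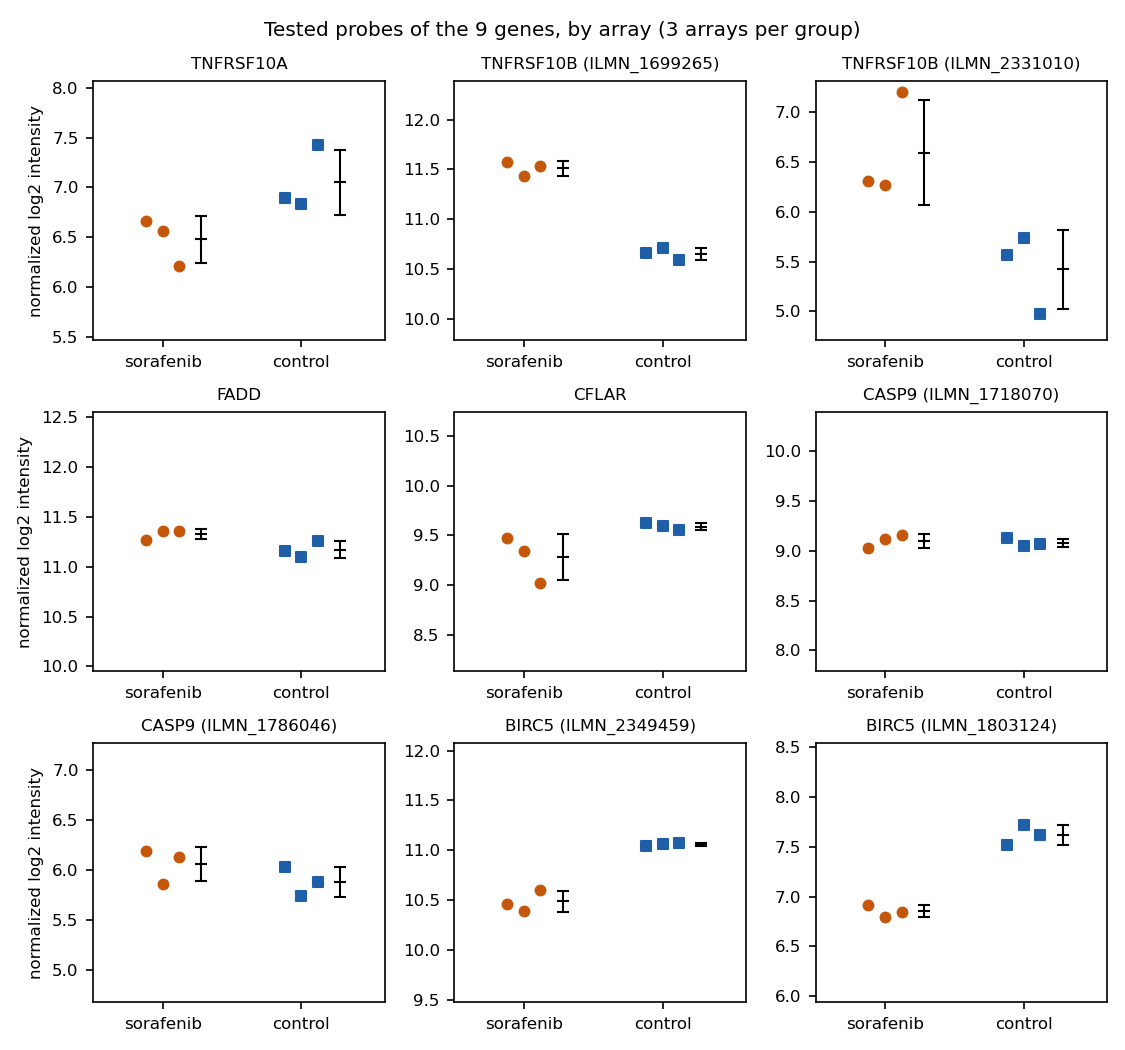
Normalized log2 intensity (vertical axis, 2.6 log2 units tall in every panel) of the 9 tested member probes on each array. Orange circles are the 3 sorafenib arrays, blue squares the 3 control arrays, and the black bar beside each is the mean with its SD. Both TNFRSF10B probes sit higher with sorafenib and both BIRC5 probes lower, with no overlap, while the CASP9 panels overlap.

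TNFRSF10B encodes DR5, a TRAIL receptor with a death domain. Its brightest probe (ILMN_1699265) read 11.57, 11.43 and 11.53 on the sorafenib arrays, against 10.66, 10.71 and 10.59 on the control arrays, in normalized log2 intensity. All sorafenib values lay above all control values, and the lowest of them exceeded the highest control by far more than the spread within either group. The means were 11.51 ± 0.07 and 10.65 ± 0.06 (SD, n = 3 each), a difference of 0.86 ± 0.07 (SE) or 1.81-fold, with a limma adjusted p of 0.000291.

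The second TNFRSF10B probe (ILMN_2331010), annotated to another transcript of the gene, was detected on all 3 sorafenib arrays and on none of the 3 control arrays. Its values were 6.31, 6.26 and 7.20 with sorafenib, against 5.56, 5.73 and 4.98 in control cells. The groups did not overlap, but the spread was wide, and sorafenib replicate 3 and control replicate 3 were the extremes. Because the control level is below detection, the ratio of the means was put at 1.61-fold or more in the main analysis. For this, each control array was given the dimmest signal called detected there, or this probe's reading where that was higher. The figure carries the spread of the sorafenib arrays and is not a strict lower limit. The fitted difference had a limma adjusted p of 0.021. The probe was tested because of the group in which it is high, so this p does not support the rise seen on the brighter probe. The call was lost without control replicate 3 (adjusted p = 0.0554) and with the replicate number as a block (adjusted p = 0.0506), and without background correction the difference was 0.56, against 1.17 in the main analysis. The remaining probe (ILMN_1812915), annotated to the same transcript as the brightest, was not detected on any array, with detection p-values from 0.0532 upward.

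TNFRSF10A encodes DR4, the other TRAIL receptor with a death domain. Its single probe read 6.66, 6.57 and 6.21 with sorafenib, against 6.89, 6.83 and 7.42 in control cells. Every sorafenib value was lower than every control value, opposite to TNFRSF10B. The difference of -0.57 ± 0.19 (SE) narrowly missed the threshold (limma adjusted p = 0.0506), with a 95% interval of -1.01 to -0.14. The call depends on the processing. It passed in 4 of 17 distinct alternative analyses, among them the one without background correction, which gives the authors' deposited log2 values (-0.33, adjusted p = 0.0322), and the adjusted p ranged from 0.0224 to 0.126 over the 17. The TRAIL receptor genes are closely related in sequence, and binding of one transcript by a probe for another was not tested.

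FAS, the receptor of FAS ligand, had 1 probe, and it was not detected on any array. Raw intensities were between 77.3 and 88.4, and no detection p-value was under 0.621. The values were 4.59, 4.55 and 4.55 with sorafenib, against 4.67, 4.61 and 4.58 in control cells, all below the dimmest detected signal, so their order carries no information. This probe is annotated to 1 of several FAS transcripts, so the reading is a statement about that probe.

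**Figure D2:**
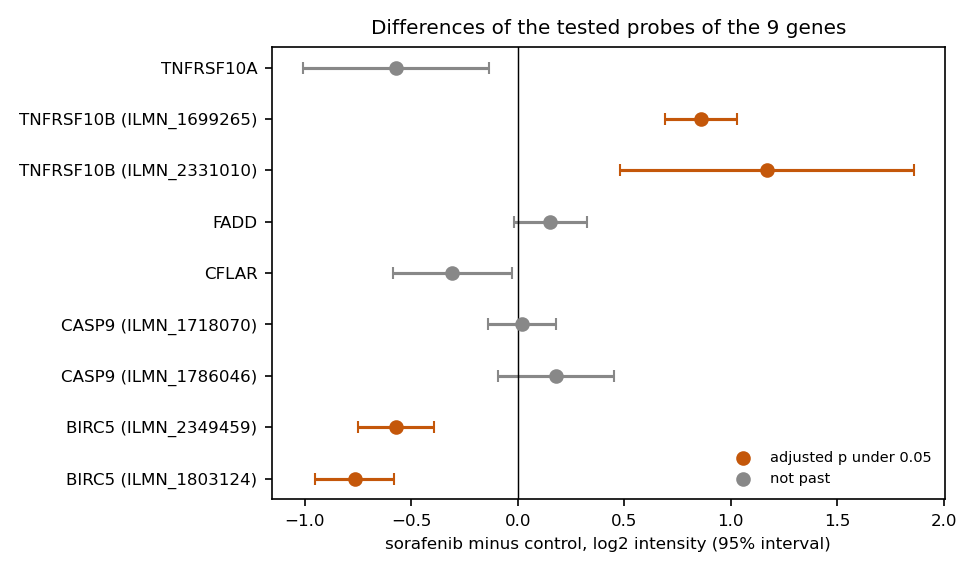
Differences between sorafenib and control (log2 intensity, horizontal axis) of the 9 tested probes, as points with 95% intervals from limma, not adjusted for the number of probes. Orange marks an adjusted p under 0.05, which the TNFRSF10B and BIRC5 probes reached. The intervals of TNFRSF10A and CFLAR lie below 0, yet neither probe passed after adjustment.

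FADD links the receptors to CASP8 through its death domain and death effector domain. It read 11.27, 11.36 and 11.36 with sorafenib, against 11.16, 11.10 and 11.26 in control cells. The groups were separate by a narrow gap, but the difference of 0.15 ± 0.07 (SE) did not pass (limma adjusted p = 0.144, 95% interval -0.02 to 0.32).

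CFLAR read 9.47, 9.34 and 9.02 with sorafenib, against 9.62, 9.59 and 9.55 in control cells. The control arrays lay close together and the sorafenib arrays were spread below them, with replicate 3 the lowest. The difference was -0.31 ± 0.12 (SE), with a limma adjusted p of 0.0849 and a 95% interval of -0.59 to -0.03. It passed in 3 of 17 alternative analyses, including without sorafenib replicate 1 (-0.40, adjusted p = 0.0481), and without sorafenib replicate 3 it was -0.18 (adjusted p = 0.132). The gene makes a long and a short protein form by splicing, and 1 probe cannot separate them.

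CASP8, the initiator caspase of the death receptor complex, was not detected on any array by any of its 4 probes. The lowest detection p-value of any of them was 0.0325, on sorafenib replicate 1 (ILMN_1673757). That probe read 5.48, 5.24 and 4.96 with sorafenib, against 4.90, 5.01 and 4.67 in control cells, and the groups overlapped. The other 3 probes had raw intensities from 76.5 to 122, with no detection p-value under 0.0961. The 4 probes are annotated to 4 different transcripts. A missing detection does not show that the gene is silent, since both probes of KRT18, a keratin gene of liver cells, were also undetected, while KRT8, its partner, was detected on all 6 arrays.

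CASP9, the initiator caspase of the apoptosome, had 2 tested probes and neither passed. The brighter (ILMN_1718070) read 9.02, 9.12 and 9.16 with sorafenib, against 9.12, 9.05 and 9.06 in control cells. The groups overlapped, and the difference of 0.02 ± 0.07 (SE) had a 95% interval of -0.14 to 0.18 (limma adjusted p = 0.847). The dimmer probe (ILMN_1786046), detected on 3 sorafenib arrays and 2 control arrays, read 6.19, 5.86 and 6.13 with sorafenib, against 6.03, 5.74 and 5.88 in control cells. Its difference was 0.18 ± 0.12 (SE), again with overlapping groups (adjusted p = 0.276).

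XIAP, the direct inhibitor of CASP9, had 1 probe that stayed just short of detection. Its detection p-values were 0.0143, 0.0442 and 0.0234 with sorafenib, against 0.0234, 0.013 and 0.0558 in control cells. Normalized values were 5.67, 5.45 and 5.69 with sorafenib, against 5.67, 5.83 and 5.40 in control cells. The groups overlapped, and the probe was not tested under this filter.

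**Figure D3:**
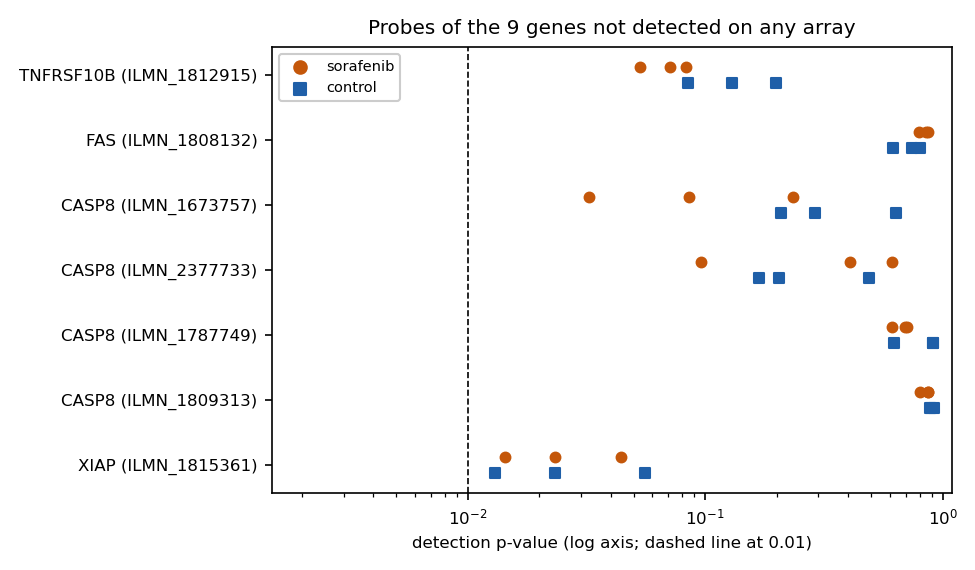
Detection p-values (log axis) of the 7 member probes that were not detected on any array, with orange circles for the 3 sorafenib arrays and blue squares for the 3 control arrays. The dashed line marks 0.01. XIAP comes nearest to it, at 0.013, while FAS and 2 CASP8 probes stay at or above 0.61 on all 6 arrays.

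BIRC5 fell on both of its probes. The brighter (ILMN_2349459) read 10.46, 10.39 and 10.60 with sorafenib, against 11.04, 11.06 and 11.07 in control cells. The control arrays were nearly equal, and every sorafenib array lay well below them. The means were 10.48 ± 0.11 and 11.06 ± 0.02 (SD, n = 3 each), so BIRC5 fell by 0.57 on the log2 scale (± 0.08, SE), or 1.49-fold, with a limma adjusted p of 0.00167.

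The other BIRC5 probe (ILMN_1803124), annotated to a different transcript, read 6.92, 6.79 and 6.85 with sorafenib, against 7.52, 7.72 and 7.62 in control cells. Here too the groups were far apart. This probe fell by 0.77 on the log2 scale (± 0.08, SE), or 1.70-fold (limma adjusted p = 0.00064), and by 0.50 without background correction. The 95% intervals of both probes overlap, -0.75 to -0.39 for the brighter and -0.95 to -0.58 for the dimmer. Both probes passed in all 17 alternative analyses, as did the brightest TNFRSF10B probe.

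The passenger complex that holds BIRC5 moves between chromosomes and spindle in mitosis, and its other genes were lower as well. Of 4 related mitotic genes measured, 4 fell and none rose, with a median of -0.68. These genes were listed with earlier results of these data known, so the count is not independent support. Over all 10598 genes, each by its brightest tested probe, 17.0% fell and 19.7% rose, with a median close to 0. INCENP, the scaffold, read 8.55, 8.39 and 8.24 with sorafenib, against 9.44, 9.48 and 9.02 in control cells, a difference of -0.92 ± 0.14 (SE). CDCA8 (borealin) differed by -0.74 ± 0.06 and the kinase AURKB by -0.62 ± 0.09. CDCA2, which brings a phosphatase to mitotic chromosomes and is not a subunit of the complex, differed by -0.53 ± 0.07. In each of the 4 the groups did not overlap (limma adjusted p at most 0.00342), and 49.5% of all tested probes had no overlap. These genes are transcribed mainly in dividing cells, and a smaller share of dividing cells cannot be told apart from less RNA per cell in such bulk samples.

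Many genes of this mitotic class carry a short element, TTTGAA, close before the start site, known as the cell cycle homology region. It was looked for in the 250 bases before each start, on both strands, in the RefSeq promoter table for GRCh38.p14, which has entries for 3 of the 4 related genes. INCENP and CDCA8 held it and the AURKB entries did not, while 13.3% of all 35116 entries did. The AURKB windows lie inside the annotated gene, so the bases before its outermost start were not searched. The 100 bases before the start are shown for the 3 subunit genes because these fell together with BIRC5, in lower case with the element in capitals. INCENP is at chr11:62123911-62124010 on the plus strand, CDCA8 at chr1:37692416-37692515 on the plus strand and AURKB at chr17:8210226-8210325 on the minus strand.
INCENP: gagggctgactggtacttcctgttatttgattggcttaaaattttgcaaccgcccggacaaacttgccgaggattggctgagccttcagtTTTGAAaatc
CDCA8: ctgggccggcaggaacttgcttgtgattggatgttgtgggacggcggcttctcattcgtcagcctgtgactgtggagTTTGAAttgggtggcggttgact
AURKB: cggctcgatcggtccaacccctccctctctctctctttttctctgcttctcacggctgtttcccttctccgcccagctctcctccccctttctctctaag
The element begins 10 bases before the start in INCENP and 23 bases before it in CDCA8. On the same strand and within the last 40 bases before the start, 0.977% of all entries have it. This narrower window was not in the planned search, and it encloses both matches. Its share therefore does not measure how unusual they are, and the share for the full search is 13.3%. Of the 9 members, 6 had promoter entries, 16 in all because several have more than 1 start. TNFRSF10A, TNFRSF10B and BIRC5 were not among them and were not searched. Among these 16 entries, 5 held TTTGAA (FAS and CFLAR) and 1 held TTCGAA (CASP8, against 1.19% of all entries). None held the E2F elements TTTGGCGC or TTTCCCGC or the CHOP and ATF4 element TTGCATCA, which stand in 0.55%, 1.39% and 0.772% of all entries. The FAS matches to TTTGAA are the same genomic site seen in overlapping windows, so entries of a gene are not independent. A match is a run of letters and not a measured binding site.

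The wider pathway was described by 9 lists with 82 genes. Named probes existed for 74 of them and 53 could be tested: 9 rose, 10 fell and 34 did not pass. Over all genes 36.7% passed, so this count lies near the background too. Among the death ligands 1 of 3 tested genes rose and none fell, with a median of 0.34. It was TNFSF10, which encodes TRAIL, the ligand of both TRAIL receptors. TNFSF10 read 6.84, 6.76 and 6.91 with sorafenib, against 5.72, 6.10 and 5.79 in control cells, where it was detected on 1 of 3 arrays. The groups did not overlap, and the fitted difference was 0.97 ± 0.11 (SE, limma adjusted p = 0.000929), or 0.49 without background correction. It was tested through the sorafenib arrays, where it is high, so its control level and the size of the difference are uncertain and the filter favoured a rise. The probes for FASLG, TNF and TNFSF12 were not detected often enough to be tested.

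Among the other death receptors and decoys, 1 of 5 fell and none rose, with a median of -0.02. TNFRSF11B encodes osteoprotegerin, a secreted decoy that binds RANK ligand and also TRAIL. It read 7.67, 7.70 and 7.68 with sorafenib, against 8.83, 8.81 and 8.92 in control cells. Both groups were tight and far apart, a fall of 1.17 on the log2 scale (± 0.06, SE) or 2.25-fold (limma adjusted p = 8.28e-05). TNFRSF10D, a membrane-bound decoy receptor for TRAIL, differed by -0.02, with a 95% interval of -0.22 to 0.19. TNFRSF1A, the main TNF receptor, differed by 0.03, and TNFRSF12A and TNFRSF21 by 0.01 and -0.04, none past the threshold.

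Among 11 adaptors and necroptosis genes, 2 rose, 1 fell and 8 did not pass, with a median of 0.00. MLKL, the protein that ruptures the membrane in necroptosis, rose 2.12-fold, with 8.63, 8.39 and 8.59 under sorafenib, against 7.33, 7.58 and 7.45 in control cells (limma adjusted p = 0.000368). The probe for RIPK3, the kinase that activates MLKL, was not detected often enough to be tested. FAF1, which binds FAS, rose by 0.38 ± 0.06 (SE), and its second probe by 0.41. TNFAIP8, a protein with a death effector-like domain, fell by 0.71 ± 0.07. TRADD, the adaptor of TNFRSF1A, differed by 0.17 without passing (adjusted p = 0.24), and PEA15, a death effector domain protein that binds FADD and CASP8, by 0.01.

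None of the 3 other caspases tested passed in limma (0 also before adjustment), with a median of -0.11. CASP2 differed by -0.11 (95% interval -0.29 to 0.06), CASP4 by -0.12 and CASP6 by 0.01, and the limma adjusted p of these was at least 0.263. Of 9 apoptosome and mitochondrial genes, 1 rose and 1 fell, with a median of 0.04. APAF1, the apoptosome scaffold that activates CASP9, read 8.89, 8.94 and 8.83 with sorafenib, against 9.20, 9.36 and 9.29 in control cells. Its fall of 0.40 on the log2 scale (± 0.07, SE, limma adjusted p = 0.00643) was lost with median centring over all probes. BID, which CASP8 cleaves to reach the mitochondria, rose by 0.21 ± 0.06 on its brightest probe (adjusted p = 0.0347). Its other tested probes differed by 0.13 and -0.30 and did not pass. The BID call was lost in 10 of 17 alternative analyses, including each of the 6 that left out 1 array.

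The other IAPs and IAP binders did not pass in any of 3 tested genes (1, BIRC2, before adjustment), with a median of -0.16. BIRC2 (cIAP1), which ubiquitinates RIPK1, differed by 0.21 (95% interval 0.01 to 0.40, limma adjusted p = 0.0974). BIRC6 differed by -0.16, as did the XIAP antagonist XAF1. Among 6 caspase substrates, 1 rose and none fell, with a median of -0.11. GSN (gelsolin) rose by a fitted 0.65 ± 0.18 (adjusted p = 0.0326), or 0.32 without background correction. It was detected on all 3 sorafenib arrays and 1 of 3 control arrays, so it too was tested through the group where it is high. This call was lost without a filter on dim probes, without sorafenib replicate 2 or 3 and without control replicate 1 or 2. DFFA, the inhibitor of the apoptotic nuclease, did not pass on its brightest probe (-0.15), while its dimmest tested probe fell by 0.48.

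**Figure D4:**
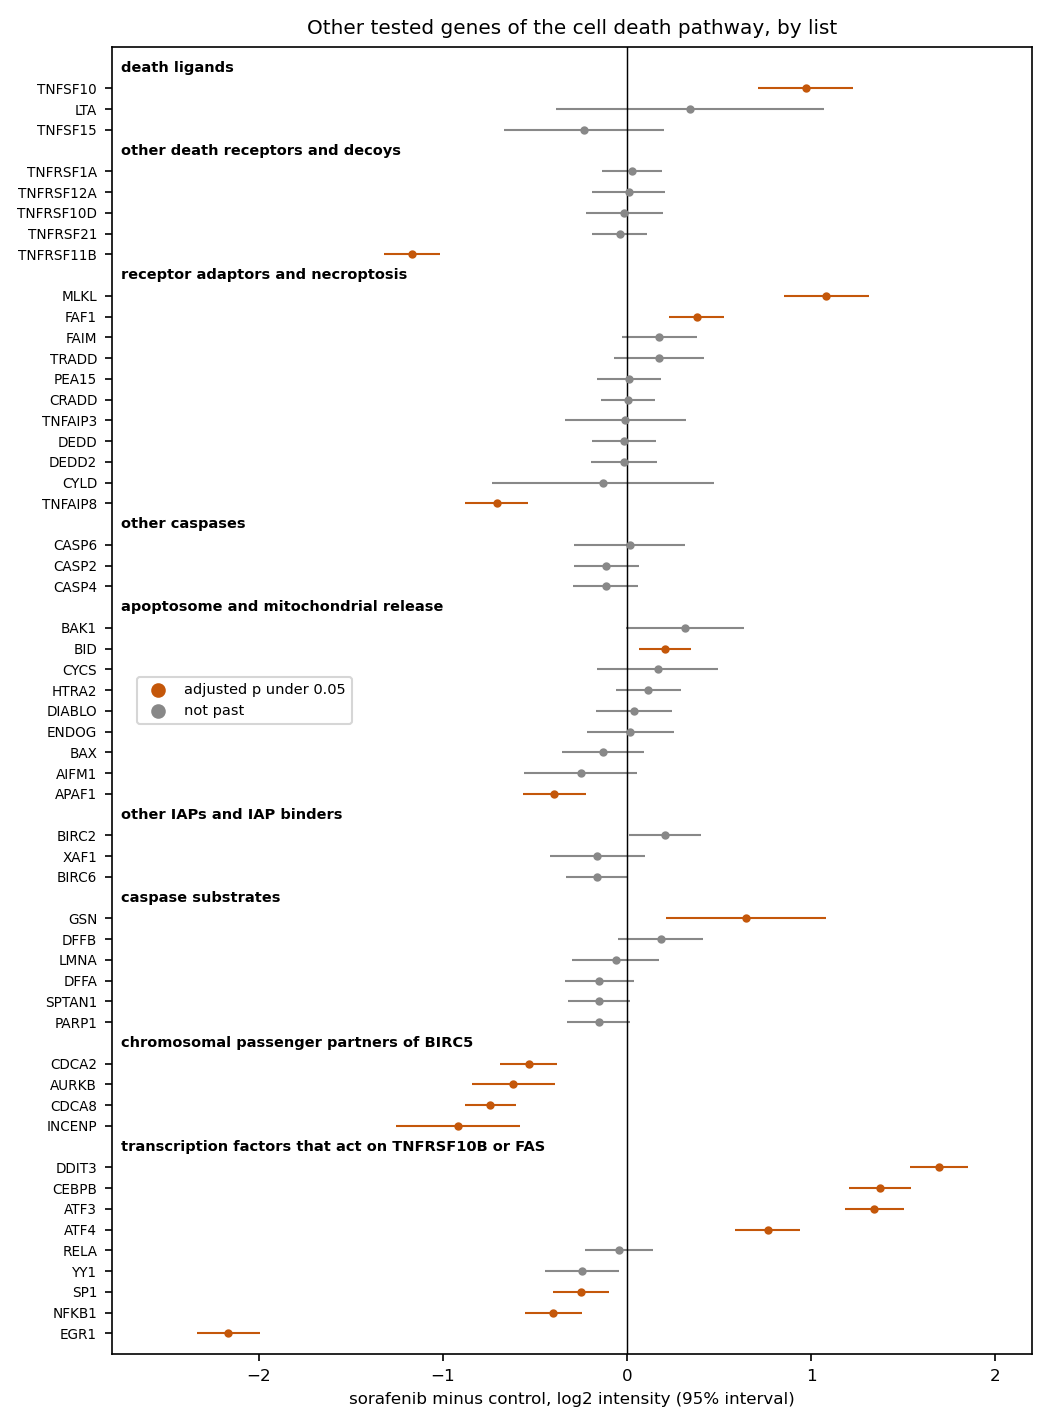
Differences between sorafenib and control (log2 intensity, horizontal axis) of the 53 other tested genes, each by its brightest tested probe and grouped by list, with 95% intervals not adjusted for the number of probes. Orange marks an adjusted p under 0.05. TNFSF10, MLKL, GSN and 4 transcription factors lie well to the right, TNFRSF11B, EGR1, TNFAIP8 and the 4 mitotic genes to the left. The caspases lie close to 0.

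Among 9 tested transcription factors known to act on TNFRSF10B or FAS, 4 rose, 3 fell and 2 did not pass, with a median of -0.04, where 36.7% of all genes passed. DDIT3 (CHOP), which induces TNFRSF10B under endoplasmic reticulum stress, read 11.27, 11.34 and 11.36 with sorafenib, against 9.57, 9.69 and 9.61 in control cells. It rose 3.24-fold (log2 1.70 ± 0.07, SE, limma adjusted p = 3.48e-05). CEBPB differed by 1.38, ATF3 by 1.34 and ATF4, on its brightest probe, by 0.76, all higher with sorafenib. A second ATF4 probe rose by 0.93, and its dimmest tested probe differed by 0.08 without passing. EGR1, an immediate early factor, fell by 2.17 on the log2 scale, NFKB1 by 0.40 and SP1 by 0.25. The SP1 call was lost in 7 of 17 alternative analyses. Whether any of these factors set the level of TNFRSF10B was not tested.

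The genes whose pattern over the 6 arrays lay nearest to each risen or fallen member probe were found by the root mean square difference after centring every probe on its mean. For the brightest TNFRSF10B probe these were SLC7A9 (0.03 log2 units), MYL5 (0.04) and TRIM25 (0.04). For the dimmer TNFRSF10B probe they were GSTA2 (0.18), CD55 (0.24) and DHRS4-AS1 (0.24), a looser match that follows the wide spread of that probe. For the brighter BIRC5 probe they were RBM14 (0.02), TLE4 (0.03) and DLGAP1-AS1 (0.03), and for the dimmer one FBXO5, BRI3BP and ANXA2 (0.04 each). The likeness is dominated by the shared difference between the groups.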

How the data were processed

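Biotinylated cRNA was hybridized to Illumina expression BeadChips, per the labels' protocols. Per the file headers, the deposited tables hold non-normalized intensities and detection p-values of 47321 probes. They also deposited log2 values of unstated method. Log2 of the raw intensity followed by quantile normalization gave those values to within 5e-07, with a median of 6.79 in each column, so they are intensities without background correction. Intensities were corrected here with limma 3.58.1 (R 4.3.3) by neqc, which estimates the background from detection p-values (offset 16), and then quantile-normalized on the log2 scale. Sorafenib was compared with control by two-sided tests from lmFit and eBayes, with Benjamini-Hochberg adjustment over the 16909 tested probes. The number of arrays, 3 per group, limits the precision. Genes were named from the platform annotation (30112 probes with 1 gene, 8 with several, 17201 not listed), with symbols checked by Entrez ID. The members, lists and tests were chosen with earlier results of these data known. Of each list, genes past the threshold were named, plus some for their role. Genes with no named probe were not analysed here. The scanner software is not given in the sources used here. Checked on simulated data of 16909 probes with 50 probes changed at each size, limma called 98% of those changed by 2 log2 units, 82% of those changed by 1, 44% of those changed by 0.5 and 0% of those changed by 0.25. It made 6 false calls. Far fewer probes changed there than the 34.1% that passed in the data, and all were raised. The adjusted threshold was therefore stricter in the simulation, and its rates do not carry over to the real comparison. Alternatives changed background correction, normalization, filter, block, variance model, weights and arrays; centring on tested probes was an addition made after seeing the data.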

Additional observations from a re-analysis of the deposited data

How the results depend on the processing

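The number of tested probes past the threshold was 5774 and ranged from 4028 to 6696 over 17 distinct alternatives (the deposited log2 values repeat the one without background correction), which held 3 to 6 member probes (4 in the main analysis) and 16 to 22 pathway genes (19 in the main analysis). No called member or pathway gene changed direction in any of them. Leaving out 1 array gave 4028 to 5033 probes and 3 to 5 member probes. Without a filter on dim probes 4336 of 47321 passed. Median centring over all probes called 4439, of which 69.5% were higher, against 52.5% in the main analysis, and moved the median of tested probes to 0.07. With the replicate number as a block, 5509 probes and 3 member probes passed, and the dimmer TNFRSF10B probe missed (adjusted p = 0.0506). Whether replicate numbers pair the samples stayed unsettled. Deviations of same-numbered arrays correlated across probes at 0.0889, 0.101 and 0.252. Each array numbered 3 correlated negatively with replicates 1 and 2 of the other group (-0.174 to -0.135). The deviations of a group cancel out for every probe, so the positive 0.252 pushes these values negative. They are therefore not separate evidence on pairing. Replicate 1 of each group correlated slightly better with replicate 2 of the other (0.0988 and 0.0941). TNFRSF10A passed without background correction, with an offset of 50 (limma adjusted p = 0.0378) and with detection required on all 6 arrays (0.0386). It also passed with an intensity trend combined with robust variance estimates (0.0224). CFLAR passed without background correction (0.0453) and with the combined intensity trend and robust variance estimates (0.0311). The cause of these changes was not tested, except that fewer arrays or probes enter some of them. FAS, CASP8 and XIAP were not detected at the threshold used, so no difference is given for them.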
